A study of Homo sapiens with 9 samples.

Results

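Described here are the genes of the serine and arginine rich splicing factors (SRSF) and of the heterogeneous nuclear ribonucleoproteins (HNRNP) in Y79 cells, an established human retinoblastoma line. Members were the probe sets annotated to exactly 1 gene symbol that starts with SRSF or HNRNP, with antisense and pseudogene symbols left out. This gave 137 probe sets of 34 genes, out of 49293 probe sets and 18132 genes tested. The SRSF family had 54 probe sets of 12 genes and the HNRNP family 83 probe sets of 22 genes. A further 10 probe sets that name a member together with another symbol were left out.

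The study asked how a peptide-carrying gold nanoparticle aimed at the p53-HDM2 interaction acts on retinoblastoma cells. RNA of 9 samples, 3 per group, was measured on Affymetrix PrimeView expression arrays. GNPs-HDM2 cells had received gold nanoparticles conjugated with HDM2 peptide, GNPs cells had received bare gold nanoparticles, and Control cells were untreated. All groups were Y79 cells grown in RPMI medium. The labels write Y97 in the treatment text and Y79 elsewhere. The labels give neither dose nor duration, nor whether replicates came from separate cultures. The p-values therefore cover the spread between these arrays alone, which may be technical. Fewer cells of a type and less RNA per cell cannot be told apart in such bulk samples.

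SR proteins bind exonic enhancer sequences through RNA recognition motifs and recruit the spliceosome through their arginine and serine rich domains. The hnRNP proteins coat nascent transcripts and often act against SR proteins at silencer sequences, so that the balance of both sets exon choice. Many genes of both families control their own level by splicing in or out a "poison" exon that sends the transcript to nonsense-mediated decay, so that a gene can give rise to transcripts of different fate and probe sets of 1 gene can read different transcripts.

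The deposited numbers are log2 values set against a baseline that each probe set has of its own, so 0 is that baseline and no absolute level is given. A trace of the baseline level was left in the stored numbers, and it put probe sets in a bright (log2 level of 8 to 16), a middle (4 to 8) or a dim class (under 4). Of the member probe sets 67.15% were bright, 24.09% middle and 8.759% dim, against 18.1%, 49.25% and 32.46% of all probe sets. The level class went with the change between groups across the whole array. In GNPs-HDM2 against Control the median log2 difference was -1.19 for all bright, 0.12 for all middle and 0.51 for all dim probe sets. Array controls differed too: the hybridization controls averaged 1.68 ± 0.30 on GNPs-HDM2, -0.12 ± 0.37 on GNPs and -0.38 ± 0.05 on Control arrays, and the 18S ribosomal RNA probe sets averaged -2.38 ± 0.30, 0.13 ± 0.12 and -0.26 ± 0.94 in the same order (SD, n = 3 each). Their part in the results was not tested. The member results are therefore given as deposited and again after each array was centred within its level classes.

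The labelled cell type was checked with photoreceptor and retinoblastoma markers, of which 10 of 13 probe sets were bright. None of the fibroblast, blood and pigment epithelium marker probe sets was bright. Summed over genes, the photoreceptor and retinoblastoma markers lay between -9.97 and 0.21 on GNPs-HDM2 arrays, 3.87 and 4.20 on GNPs arrays and 2.38 and 5.33 on Control arrays. The fibroblast markers lay between 1.60 and 4.49, -0.83 and -0.43, and -0.00 and 0.54 in the same order. Of the 7 measured photoreceptor and retinoblastoma marker genes 4 fell in GNPs-HDM2 against Control and 0 rose, while 3 of 6 fibroblast, 4 of 5 blood and 4 of 5 pigment epithelium marker genes rose. Over all genes 25.1% fell and 33.1% rose. Of the marker probe sets 16 of 24 fibroblast, 13 of 15 blood and 6 of 13 pigment epithelium ones were dim. Across the array 33.8% of dim probe sets rose. Values carry no level, so no marker can be said to be at 0, and the part of these shifts in the member results was not tested.

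Promoters are shown for 3 members that the results describe in detail. RefSeq windows (build GRCh38.p14, 250 bases before to 50 after each transcript start, 300 in all) matched 32 of the 34 genes, with 46 windows. The following 3 stand for SRSF3, the small SR protein that also exports mRNA, SRSF5, the member with the most probe sets, and HNRNPK, whose probe sets all fell. Capitals mark the motifs found.
SRSF3 (chr6:36594112-36594411, plus strand): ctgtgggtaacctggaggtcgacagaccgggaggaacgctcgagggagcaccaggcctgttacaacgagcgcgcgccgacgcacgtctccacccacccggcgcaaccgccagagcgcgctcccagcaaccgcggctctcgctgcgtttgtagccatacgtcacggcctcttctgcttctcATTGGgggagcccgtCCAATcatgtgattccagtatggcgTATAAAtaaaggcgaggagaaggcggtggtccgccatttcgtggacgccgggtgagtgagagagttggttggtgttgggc
SRSF5 (chr14:69766892-69767191, plus strand): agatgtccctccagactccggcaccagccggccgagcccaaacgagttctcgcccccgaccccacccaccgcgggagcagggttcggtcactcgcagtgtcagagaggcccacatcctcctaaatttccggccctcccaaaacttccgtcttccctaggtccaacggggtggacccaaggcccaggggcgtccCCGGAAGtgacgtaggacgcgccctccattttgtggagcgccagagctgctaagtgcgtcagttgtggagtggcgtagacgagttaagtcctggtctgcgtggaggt
HNRNPK (chr9:83980566-83980865, minus strand): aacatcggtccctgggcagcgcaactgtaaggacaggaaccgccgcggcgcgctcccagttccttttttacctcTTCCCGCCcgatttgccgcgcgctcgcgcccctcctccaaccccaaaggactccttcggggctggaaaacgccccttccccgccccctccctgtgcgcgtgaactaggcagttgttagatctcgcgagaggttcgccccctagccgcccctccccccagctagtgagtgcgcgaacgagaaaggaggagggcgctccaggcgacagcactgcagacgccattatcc

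Each motif was searched on both strands. The CCAAT box (CCAAT) was in 50% of member windows and 34.6% of all 35116 windows. The TATA box (TATAAA) was in 13% and 11.5%, the E-box (CACGTG) in 15.2% and 7.26%, and the ETS site (CCGGAAG) in 10.9% and 10.3%. The E2F site (GGCGGGAA) was in 15.2% of member windows and 3.16% of all windows, and the palindromic NRF1 site in 0% and 1.24%. SRSF3 held 2 CCAAT matches, on opposite strands, and a TATAAA match. SRSF5 held a CCGGAAG match and the shown HNRNPK window a GGCGGGAA match on the other strand. Another HNRNPK window, not shown, held CCAAT matches only, and the SRSF1 window, not shown either, held none of the motifs. These are letter matches only.

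In GNPs-HDM2 against Control, most members fell. By gene, taken as the mean of its probe sets, 22 of 34 fell and 0 rose (limma, adjusted p under 0.05 over all genes), where 25.1% of all genes fell and 33.1% rose. Of the 22, 19 fell at least 2-fold. The median member gene had a log2 difference of -1.24, against 0.25 over all genes. By family, 7 of 12 SRSF genes and 15 of 22 HNRNP genes fell. By probe set, 86 of 137 fell and 5 rose, where 23.7% of all probe sets fell and 24.9% rose.

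**Figure D1:**
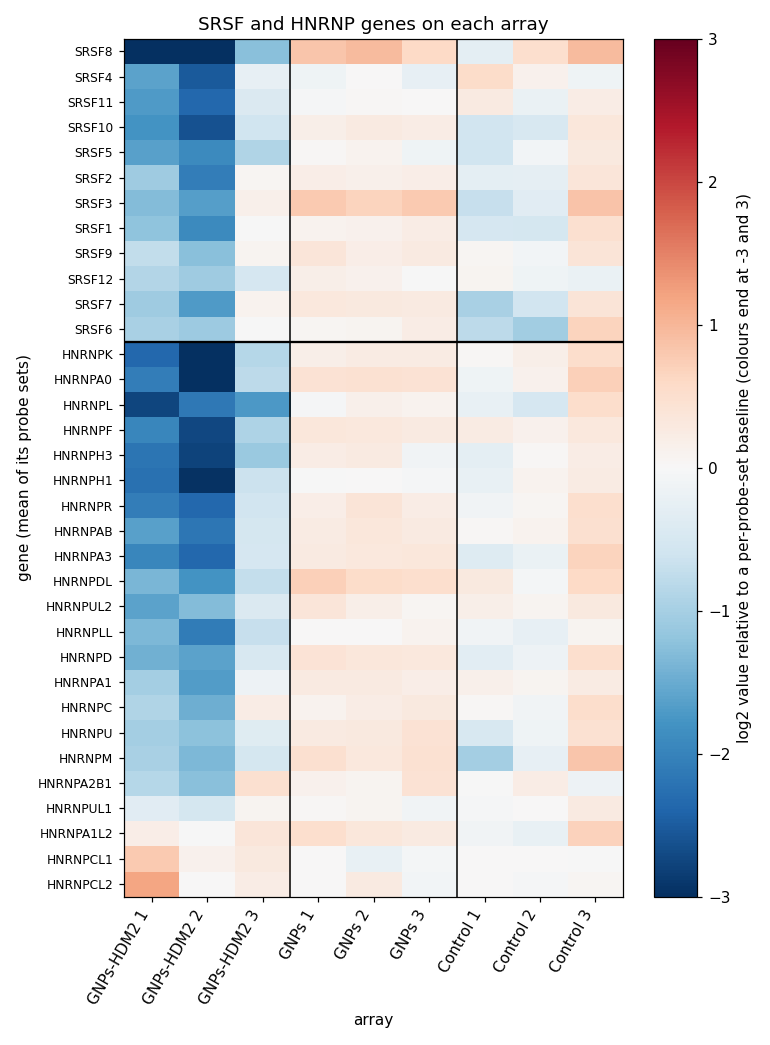
Heat map of the 34 member genes (rows) on the 9 arrays (columns, GNPs-HDM2 left, GNPs in the middle, Control right), coloured by log2 value relative to the per-probe-set baseline, with colours ending at -3 and 3. Most rows are blue on GNPs-HDM2 arrays, deepest on replicate 2, which was the lowest of the 3 in 32 of 34 genes, and palest on replicate 3.

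Among the SR proteins, SRSF8, a gene that arose as a retrotransposed copy of SRSF2, fell the furthest. SRSF8 lay at -3.05, -3.46 and -1.25 on the GNPs-HDM2 arrays, against -0.29, 0.51 and 0.95 on the Control arrays. The groups did not overlap, and the difference was -2.97 (SE 0.51, limma adjusted p = 0.00284), on a single probe set of the middle class. It was as large after level centring, at -3.03 (adjusted p = 0.00236).

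SRSF5, also known as SRp40, lay at -1.63, -1.92 and -0.91 on GNPs-HDM2 arrays, against -0.60, -0.08 and 0.28 on Control arrays, a difference of -1.35 (SE 0.29, limma adjusted p = 0.00555). SRSF11, which has an arginine and serine rich domain and binds other spliceosome proteins, lay at -1.70, -2.36 and -0.43, against 0.26, -0.20 and 0.23 in Control (-1.60, SE 0.39, limma adjusted p = 0.0095). SRSF12, a relative of SRSF10 that acts against other SR proteins, lay at -0.89, -1.06 and -0.50 in GNPs-HDM2 and at 0.09, -0.13 and -0.20 in Control (-0.73, SE 0.18, limma adjusted p = 0.00922). In all 3 genes every GNPs-HDM2 array was below every Control array.

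SRSF10, which turns into a splicing repressor when dephosphorylated, lay at -1.79, -2.61 and -0.59 on GNPs-HDM2 arrays, against -0.57, -0.48 and 0.34 on Control arrays (-1.43, SE 0.43, limma adjusted p = 0.0204). SRSF4, the large SR protein SRp75, lay at -1.61, -2.52 and -0.24, against 0.55, 0.12 and -0.13 in Control (-1.64, SE 0.46, limma adjusted p = 0.015). In both genes the groups did not overlap, by a narrow margin, and both calls were lost after level centring (-0.80, adjusted p = 0.0547, and -0.50, adjusted p = 0.0971). SRSF4 did not pass without GNPs-HDM2 replicate 1 (-1.56, adjusted p = 0.0528), and SRSF10 did not pass without GNPs-HDM2 replicate 1 (-1.36, adjusted p = 0.0649), GNPs-HDM2 replicate 2 (-0.95, adjusted p = 0.0585) or Control replicate 3 (-1.14, adjusted p = 0.0813).

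SRSF9 just passed (-0.75, SE 0.29, limma adjusted p = 0.0493), and its call was lost when any 1 of the 9 arrays other than GNPs-HDM2 replicate 3 was left out (-0.86 to -0.45). Level centring turned it to 0.08. Its mean combines probe sets that moved in opposite directions, described further on. The other 5 SR genes, SRSF1, SRSF2, SRSF3, SRSF6 and SRSF7, did not pass, with differences of -0.97 to -0.31. SRSF1, the founding SR protein and a known oncogene product, lay at -1.21, -1.90 and -0.02 on GNPs-HDM2 arrays, against -0.50, -0.52 and 0.48 on Control arrays (-0.86, SE 0.43, limma adjusted p = 0.104). SRSF3 lay at -1.31, -1.65 and 0.16, against -0.70, -0.34 and 0.86 in Control (-0.87, SE 0.48, limma adjusted p = 0.136). For both, GNPs-HDM2 replicate 3 lay inside the range of the Control arrays.

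Among the hnRNP genes, HNRNPK fell the furthest. It codes for a protein that binds C-rich RNA through KH domains and is known as an HDM2 target and p53 cofactor. HNRNPK lay at -2.35, -3.41 and -0.85 on GNPs-HDM2 arrays, against 0.04, 0.19 and 0.53 on Control arrays. The difference was -2.46 (SE 0.50, limma adjusted p = 0.00487), and all of its 6 probe sets fell, by -3.03 to -1.81.

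HNRNPL, which binds CA repeats, lay at -2.75, -2.14 and -1.72 on GNPs-HDM2 arrays, against -0.23, -0.50 and 0.53 on Control arrays (-2.14, SE 0.30, limma adjusted p = 0.00158). HNRNPF, which binds runs of G, lay at -1.96, -2.73 and -0.91, against 0.25, 0.12 and 0.33 in Control (-2.10, SE 0.36, limma adjusted p = 0.00283). HNRNPH3, of the same G-run binding family, lay at -2.20, -2.78 and -1.11, against -0.28, 0.02 and 0.23 in Control (-2.02, SE 0.36, limma adjusted p = 0.00311). In each of these genes every GNPs-HDM2 array was below every Control array.

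HNRNPDL, a relative of the AU-rich element binder HNRNPD, lay at -1.37, -1.79 and -0.73 on GNPs-HDM2 arrays, against 0.29, -0.05 and 0.59 on Control arrays (-1.57, SE 0.27, limma adjusted p = 0.00271). HNRNPUL2, a relative of the nuclear scaffold protein HNRNPU, lay at -1.61, -1.30 and -0.44, against 0.19, 0.08 and 0.30 in Control (-1.31, SE 0.27, limma adjusted p = 0.00491). The 2 genes parted after level centring, where HNRNPDL kept its call (-0.67, adjusted p = 0.00932) and HNRNPUL2 lost it (-0.17, adjusted p = 0.505).

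HNRNPA1, the best known splicing silencer protein, lay at -1.02, -1.68 and -0.16 on GNPs-HDM2 arrays, against 0.15, 0.08 and 0.26 on Control arrays (-1.11, SE 0.31, limma adjusted p = 0.0145). Level centring turned it to 0.02 (adjusted p = 0.894), and without Control replicate 3 it did not pass (-1.07, adjusted p = 0.0506). All 5 HNRNPA1 probe sets are bright, and 4 of them fell. The remaining hnRNP genes that fell were HNRNPA0, HNRNPA3, HNRNPAB, HNRNPD, HNRNPH1, HNRNPLL, HNRNPR and HNRNPU, with differences of -2.24 to -0.82. HNRNPU did not pass after level centring (-0.36, adjusted p = 0.182), or without Control replicate 2 (-0.86) or 3 (-0.56) or GNPs-HDM2 replicate 1 (-0.74) or 2 (-0.64), and HNRNPA3 did not pass without Control replicate 3 (-1.32).

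The 7 hnRNP genes that did not pass were HNRNPA1L2, HNRNPA2B1, HNRNPC, HNRNPCL1, HNRNPCL2, HNRNPM and HNRNPUL1. HNRNPA1L2 is a copy of HNRNPA1, and HNRNPCL1 and HNRNPCL2 are close relatives of HNRNPC, so their single probe sets may share signal with those genes. The differences of these 3 were positive, at 0.06, 0.40 and 0.46. HNRNPM had 0.573 of the Control level on the linear scale (-0.80, SE 0.40, limma adjusted p = 0.101) and HNRNPC 0.549 (-0.87, SE 0.36, limma adjusted p = 0.0627). Both means combine probe sets that moved in opposite directions (-2.19 to 1.65 and -2.10 to 1.11), described further on.

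After level centring, 16 of the 22 genes were still lower (47.1% of members, against 21.6% of all genes). The other 6 were not (SRSF4, SRSF9, SRSF10, HNRNPA1, HNRNPU and HNRNPUL2). With this centring 52 probe sets fell and 8 rose (38% and 5.84%, against 20% and 19.4% of all probe sets). Quantile normalization left 11 genes and 23 probe sets lower (32.4% and 16.8%, against 7.47% of all genes and 7.75% of all probe sets). The spread pooled over the 3 groups can make the SEs of GNPs-HDM2 differences too small, since those arrays spread most. With the 2 groups alone, 55.9% of member genes fell, against 18.5% of all genes. By probe set these shares were 42.3% and 16.3%. Under all of the scaling, model and leave-one-out alternatives that could be computed, 9 of the 22 kept their call: SRSF8, HNRNPA0, HNRNPAB, HNRNPDL, HNRNPF, HNRNPH1, HNRNPH3, HNRNPK and HNRNPR. In 20 member genes all GNPs-HDM2 arrays were below all Control arrays and in 1, HNRNPCL1, above, where 23.9% and 36% of all genes were so placed. Leaving out GNPs-HDM2 replicate 1 cut the probe sets that fell to 56 (40.9%, against 16.6% of all probe sets).

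Split by level class, 71 of the 92 bright member probe sets fell (77.2%, median -1.64), against 61% of all bright probe sets (median -1.19). Of the 33 middle members 15 fell (45.5%, median -0.91), against 25.4% of all middle probe sets (median 0.12). Of the 12 dim members 0 fell and 2 rose, where 0.569% of all dim probe sets fell and 33.8% rose. The members' shares lay above those of all probe sets in the bright and middle classes, and this difference was not tested.

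**Figure D2:**
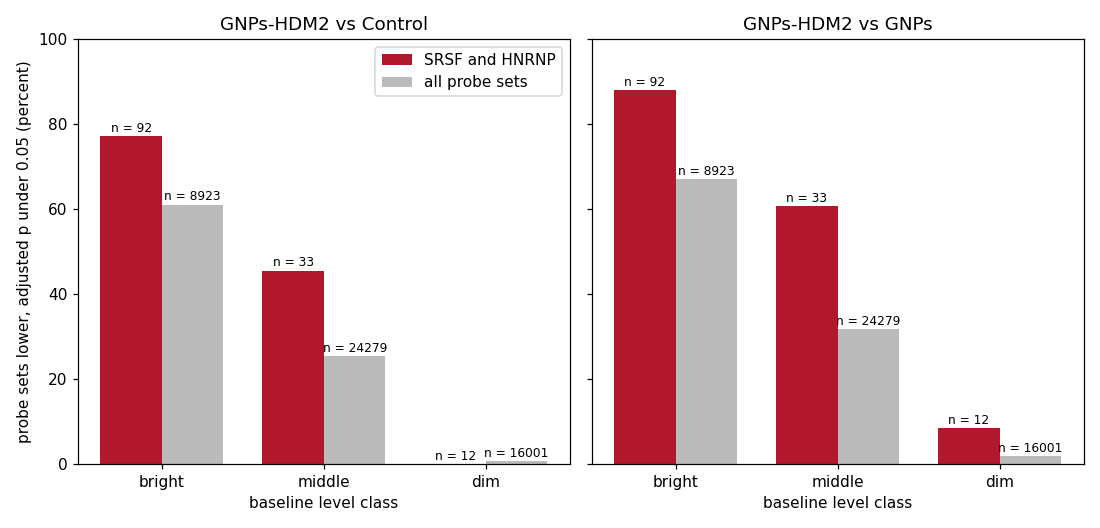
Bars give the percent of probe sets lower with an adjusted p under 0.05 (vertical axis) in the bright, middle and dim baseline classes, for SRSF and HNRNP members (red, n over each bar) and for all probe sets (grey), in GNPs-HDM2 vs Control (left) and GNPs-HDM2 vs GNPs (right). In GNPs-HDM2 vs Control the member bars reach 77.2% and 45.5% in the bright and middle classes, against 61% and 25.4% for all probe sets.

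Some member genes had probe sets that moved apart in GNPs-HDM2 against Control. Each probe set was set against the mean of the gene's other probe sets on the same array, which takes away what they share. Of 130 member probe sets in the 27 genes with at least 2, 47 moved apart from their gene (36.2%, limma adjusted p under 0.05), 22 above it and 25 below it, where 28.2% of all such probe sets did. These 47 belonged to 15 genes. The median gap between the highest and lowest probe set of a member gene was 1.57 log2 units, against 0.88 over all genes with at least 2 probe sets. Such a gap widens with the number of probe sets, which was not matched. The 27 member genes had 130, and all 11734 such genes had 38590. In GNPs against Control, where no member moved apart, the median gaps were 0.46 and 0.30. After level centring, 25 of the 47 still moved apart in the same direction. The members' share was close to that of all probe sets with level centring (30.8% against 30%), the 2 groups alone (9.23% against 9.02%) and array weights (16.9% against 17.4%). It was below with diffSplice (13.1% against 21.6%) and quantile normalization (1.54% against 3.17%). It stayed above under others, such as the replicate block (40.8% against 26.4%) and without Control replicate 1 (27.7% against 17.4%). Because the excess depended on the setting, the number of members moving apart is no result about the 2 families, and the genes below are described one by one. With quantile normalization the 2 probe sets that moved apart were those of HNRNPC and SRSF9 that rose. Leaving out Control replicate 2, Control replicate 3 or GNPs-HDM2 replicate 1 cut the 47 to 27, 28 or 26. These were 20.8%, 21.5% and 20% of the members, against 12%, 13.2% and 16.6% of all such probe sets.

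**Figure D3:**
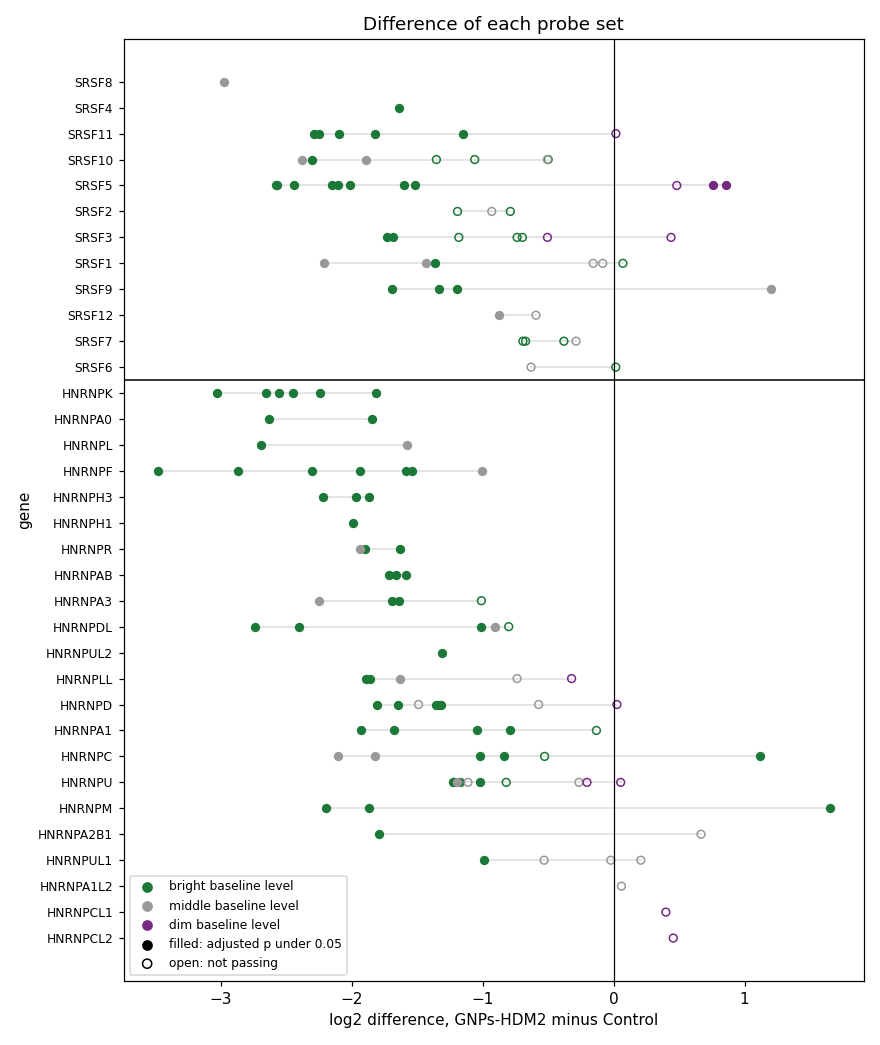
Each point is a probe set, placed by its log2 difference, GNPs-HDM2 minus Control (horizontal axis), in the row of its gene, with colour for the baseline class and filled points for an adjusted p under 0.05. The rows of HNRNPM, HNRNPC, SRSF9 and SRSF5 have filled points on both sides of 0, and the filled points to the right reach 1.65.

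In 4 of the 27 genes, HNRNPM, HNRNPC, SRSF9 and SRSF5, probe sets passed in both directions, where 9% of all genes with at least 2 probe sets had such a split. HNRNPM, a protein that binds GU-rich RNA, had the widest gap (3.84). Its probe set 11761516_x_at lay at 1.85, 1.87 and 1.03 on GNPs-HDM2 arrays, against -0.27, -0.10 and 0.16 on Control arrays, and rose by 1.65 (SE 0.26, limma adjusted p = 0.00223). The other HNRNPM probe sets, 11739175_a_at and 200072_PM_s_at, fell, with differences of -2.19 and -1.87 (limma adjusted p = 0.0126 and 0.0274). After level centring neither fall passed (-1.06 and -0.73, adjusted p = 0.0943 and 0.271), while 11761516_x_at was still higher (2.79). On GNPs-HDM2 arrays the first was above its baseline on all 3 and the other two below theirs on all 3. The ending _x_at marks a probe set with probes that also match other sequences. The difference of 11761516_x_at from the rest of its gene was 3.68 (SE 0.65, limma adjusted p = 0.00632). This difference kept its call in 16 of 17 alternatives, with quantile normalization as the exception (1.74, adjusted p = 0.0758). All 3 HNRNPM probe sets are bright, so level centring leaves it at 3.68 by construction. Median centring cannot change a difference from the rest of a gene either, here or in the genes below.

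HNRNPC, which binds U-rich stretches of nascent transcripts, had a gap of 3.21. Its probe set 11762054_a_at lay at 1.32, 0.93 and 1.20 on GNPs-HDM2 arrays, against 0.03, -0.25 and 0.33 on Control arrays, and rose by 1.11 (SE 0.21, limma adjusted p = 0.00418). Of the other 5 probe sets 4 fell, with differences of -2.10 to -0.83, and 11758144_x_at did not pass (-0.53). The gene's middle-class probe set 11732246_a_at lay at -2.10, -2.42 and -0.22 on GNPs-HDM2 arrays, against -0.52, 0.00 and 1.26 in Control. Both 11762054_a_at and the 3 other _x_at and _s_at probe sets near -1.02 to -0.53 are bright, so their split is within a level class. After level centring the falls of 11756337_x_at and 200014_PM_s_at were lost and their differences positive (0.30 and 0.11, adjusted p = 0.137 and 0.602), and 11758144_x_at was higher (0.61, adjusted p = 0.0264). The middle-class 11732246_a_at and 11732247_s_at were still lower (-1.88 and -2.16) and 11762054_a_at still higher (2.25). The difference of 11762054_a_at from the rest of its gene was 2.38 (SE 0.39, limma adjusted p = 0.00491) and kept its call in 17 of 17 alternatives.

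SRSF9, also known as SRp30c, had a gap of 2.90. Its probe set 11760259_at lay at 0.91, 1.30 and 1.15 on GNPs-HDM2 arrays, against 0.17, -0.32 and -0.10 on Control arrays, and rose by 1.20 (SE 0.20, limma adjusted p = 0.00281). The other 3 probe sets fell, with differences of -1.69 to -1.20. After level centring 11718666_x_at was still lower (-0.56, adjusted p = 0.0434), and 11718665_s_at and 200044_PM_at did not pass (-0.06 and -0.19, adjusted p = 0.846 and 0.372). The arrays of both groups were apart for 11760259_at, whose difference from the rest of its gene of 2.61 (SE 0.43, limma adjusted p = 0.00523) kept its call in 17 of 17 alternatives. This probe set is of the middle class and the other 3 are bright, so the split in SRSF9 ran along the level classes. Level centring cut the difference from the rest of the gene to 1.42 (limma adjusted p = 0.00512). On its own 11760259_at was then still higher (1.15, limma adjusted p = 0.00202).

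SRSF5 had 11 probe sets and a gap of 3.43. Its 8 bright probe sets all fell, with differences of -2.58 to -1.52. Of its 3 dim probe sets, 11760242_a_at lay at 0.74, 1.02 and 0.41 on GNPs-HDM2 arrays, against -0.13, -0.02 and -0.26 on Control arrays, and rose by 0.86 (SE 0.20, limma adjusted p = 0.00897), and 11760894_s_at rose by 0.76 (SE 0.28, limma adjusted p = 0.0483). The third, 11760276_s_at, did not pass (0.48). The split in SRSF5 thus also ran along the level classes. After level centring neither of the 2 was higher on its own (0.37 and 0.27, adjusted p = 0.0764 and 0.323), while both still lay above the rest of the gene (1.13 and 1.02, adjusted p = 0.0121 and 0.0413). The call of 11760894_s_at on its own was lost without any 1 array other than GNPs-HDM2 replicate 3 (0.55 to 0.84).

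**Figure D4:**
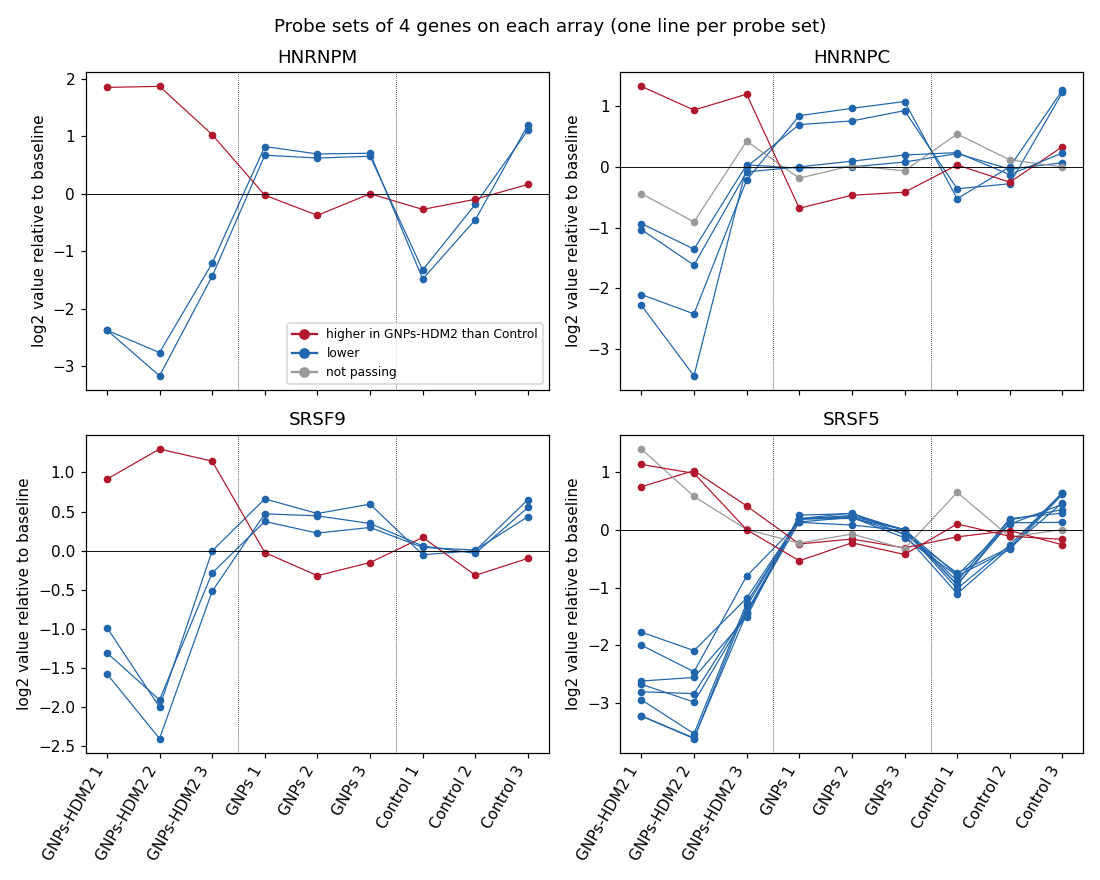
Panels for HNRNPM, HNRNPC, SRSF9 and SRSF5 plot the log2 value relative to baseline (vertical axis) of every probe set (a line each) on the 9 arrays, GNPs-HDM2 first and Control last, in red for probe sets higher in GNPs-HDM2 than Control, blue for lower and grey for not passing. Red and blue lines part on GNPs-HDM2 arrays, by up to 3.84 log2 units between group differences in HNRNPM, and lie closer together on the other arrays.

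In the other 4 genes of widest gap the passing probe sets all fell, by unequal amounts. All 7 probe sets of HNRNPF fell. Its 11725971_a_at lay at -3.92, -3.76 and -2.05 on GNPs-HDM2 arrays, against 0.29, 0.00 and 0.43 on Control arrays (-3.48, SE 0.42, limma adjusted p = 0.000916), the largest fall of any member probe set. Its 11741133_s_at lay at -0.69, -1.11 and -0.65, against 0.29, 0.01 and 0.26 in Control (-1.003, SE 0.19, limma adjusted p = 0.00448). The first lay below the rest of its gene, by a difference of -1.61 (SE 0.27, limma adjusted p = 0.00547) and did so after level centring (-1.41, adjusted p = 0.00803), while the second lay 1.28 above it (SE 0.34, limma adjusted p = 0.0245) and did not after level centring (0.09). That second call was also lost without any 1 Control array or GNPs-HDM2 replicate 1 or 2 (0.95 to 1.33). Of the other HNRNPF probe sets, 11725970_x_at, 11725972_s_at and 11725973_x_at also moved apart (0.66, 0.60 and -0.90, limma adjusted p = 0.0272, 0.0338 and 0.0369). These calls were lost in 7, 11 and 12 of 17 alternatives. After level centring the falls of 11725970_x_at and 11725972_s_at did not pass (-0.40 and -0.45, limma adjusted p = 0.0597 and 0.0826).

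HNRNPA2B1, the source of the hnRNP A2 and B1 proteins, had a bright probe set, 11742679_s_at, that fell (-1.79, SE 0.40, limma adjusted p = 0.00703) and a middle one, 11742680_at, that did not pass (0.67, SE 0.46, limma adjusted p = 0.23). The first lay at -1.71, -2.39 and -0.62 on GNPs-HDM2 arrays and at -0.28, 0.45 and 0.46 on Control arrays, and the second at 0.00, -0.11 and 1.58 and at 0.26, -0.00 and -0.79. Their difference from each other was 2.46 (SE 0.43, limma adjusted p = 0.0059), and 1.26 after level centring (adjusted p = 0.0888). In SRSF1, 11747684_a_at, 11727811_a_at and 11727812_s_at fell (-2.21, -1.43 and -1.36), while 11727813_a_at, 11743269_a_at and 11758600_s_at did not pass (0.07, -0.08 and -0.16) and lay above the rest of the gene by 1.12, 0.94 and 0.85 (limma adjusted p = 0.00302, 0.0116 and 0.0194). After level centring 11727813_a_at lay above the rest of SRSF1 (2.08) and was higher on its own (1.21, adjusted p = 0.00363), while the other two no longer lay above it (0.46 and 0.37, adjusted p = 0.13 and 0.364) and the fall of 11727812_s_at was lost (-0.22, adjusted p = 0.522). In SRSF11, 5 bright probe sets fell (-2.29 to -1.15), and the dim 11761781_a_at did not pass (0.02) and lay 1.94 above the rest of the gene (limma adjusted p = 0.00704), which level centring brought to 0.31 (adjusted p = 0.333).

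By level class, 10 of the bright member probe sets that moved apart lay above their gene and 22 below it. For the middle class 7 lay above and 3 below, and for the dim class 5 above and 0 below. A further split was chosen after the values were seen. All 5 member probe sets that rose have IDs that start with 1176, and of the 17 such members 5 rose and 4 fell, while of the other 120 members 0 rose and 82 fell. Across the array, 40.4% of the 4293 probe sets with such IDs rose and 4.98% fell. Among bright probe sets, 30.1% of the 269 with such IDs rose and 30.5% fell, against 6.26% and 62% of the other 8654. What this block of IDs shares was not tested, and which isoform a probe set reads is not known here, because probe sequences were not used.

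Most members were also lower in GNPs-HDM2 than in cells given bare particles. In GNPs-HDM2 against GNPs, 28 of 34 genes fell, 25 of them at least 2-fold, 1 rose and 5 did not pass (limma, same threshold), where 29.1% of all genes fell and 43.2% rose. This took in 11 of 12 SRSF and 17 of 22 HNRNP genes. The median member gene had a difference of -1.40, against 0.30 over all genes. By probe set, 102 fell and 6 rose, where 28.3% and 36.3% of all probe sets did. Both comparisons use the same GNPs-HDM2 arrays, so they are no separate evidence of each other.

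SRSF8 was again lowest, with 0.83, 0.94 and 0.60 on the GNPs arrays that its values of -3.05, -3.46 and -1.25 on GNPs-HDM2 arrays were set against (-3.38, SE 0.51, limma adjusted p = 0.000927). HNRNPL (-2.29, SE 0.30, limma adjusted p = 0.000632), HNRNPF (-2.18, SE 0.36, limma adjusted p = 0.00124) and HNRNPDL (-1.88, SE 0.27, limma adjusted p = 0.000774) fell by similar amounts. HNRNPL lay at -2.75, -2.14 and -1.72 on GNPs-HDM2 arrays and at -0.02, 0.16 and 0.11 on GNPs arrays. SRSF5 (-1.49, limma adjusted p = 0.00207) and SRSF12 (-0.91, limma adjusted p = 0.00229) were the other SR genes with the smallest p. None of these groups overlapped. In 27 member genes all GNPs-HDM2 arrays lay below all GNPs arrays and in 1 above, where 30.5% and 45.9% of all genes did so.

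SRSF1 (-1.20, SE 0.43, limma adjusted p = 0.0292), SRSF3 (-1.67, SE 0.48, limma adjusted p = 0.0116), SRSF7 (-1.17, SE 0.44, limma adjusted p = 0.0349) and HNRNPM (-1.37, SE 0.40, limma adjusted p = 0.0117) passed here and not against Control. That the 2 differences of such a gene differ is the GNPs against Control comparison, in which none passed. SRSF1 and SRSF7 lost their call without GNPs-HDM2 replicate 1 or 2 or any 1 GNPs array (-1.22 to -0.77 and -1.19 to -0.77). Level centring ended the calls of SRSF1 (-0.83, adjusted p = 0.069), SRSF7 (-0.29, adjusted p = 0.433) and HNRNPM (-0.17, adjusted p = 0.72). The HNRNPM mean combines probe sets that moved in opposite directions here too (-2.97 to 1.72). The gene that rose was HNRNPCL1, at 0.78, 0.12 and 0.29 on GNPs-HDM2 arrays and 0.01, -0.21 and -0.06 on GNPs arrays (0.49, SE 0.19, limma adjusted p = 0.0372). HNRNPCL1 has a single dim probe set, ending in _x_at, which did not pass in the probe set fit, where 52.3% of all dim probe sets rose. Level centring turned it to -0.09, and it did not pass without any 1 array other than GNPs-HDM2 replicate 2 or 3 (0.29 to 0.54).

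After level centring 19 of the 28 genes were still lower in GNPs-HDM2 than in GNPs (55.9% of members, against 26.5% of all genes). HNRNPA1 turned to 0.00. Of the bright members 88% fell, against 67% of all bright probe sets, and of the middle members 60.6%, against 31.7%. Of the 12 dim members 1 fell and 3 rose, where 1.75% and 52.3% of all dim probe sets did. For moving apart, 66 of 130 probe sets in 19 genes passed (50.8%, against 38% of all), 31 above and 35 below their gene. The 4 genes split in both directions were again HNRNPM, HNRNPC, SRSF9 and SRSF5, and 14.9% of all genes were so split. The probe sets that rose were 11761516_x_at of HNRNPM (1.72), 11762054_a_at of HNRNPC (1.67), 11760259_at of SRSF9 (1.29) and the 3 dim ones of SRSF5 (0.87 to 1.10). Leaving out GNPs replicate 1, 2 or 3 cut the 66 to 43, 39 or 40 (33.1%, 30% and 30.8%, against 23%, 23% and 21.8% of all). Quantile normalization cut the 66 to 20. The members' share was below that of all probe sets with level centring (36.2% against 40.7%), quantile normalization (15.4% against 19.1%) and diffSplice (24.6% against 28.8%).

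Bare particles changed no member past the threshold. In GNPs against Control 0 of 34 genes and 0 of 137 probe sets passed (limma), and 0.0221% of all genes and 0.00811% of all probe sets were called, each of them higher. None of all genes or probe sets was lower (0%). At an unadjusted p under 0.05 there were 2 member probe sets higher, 1 lower and 0 genes. With the 2 groups alone or array weights, 0% of member genes were called, against 0.336% and 3.94% of all genes. Quantile normalization called 3 member probe sets higher and 1 lower (2.19% and 0.73%, against 4.78% and 5.73% of all probe sets). It called 0 member genes, where 6.97% of all genes were higher and 8.37% lower. The differences leaned upward, in 28 of 34 member genes, where 41% of all genes had a positive difference, and the median member gene was at 0.16. The sign went with the level class across the array. Negative differences were found in 3480 of 8923 bright and 11352 of 16001 dim probe sets. Of the 92 bright member probe sets 24 were negative. Whether members leaned more than other bright probe sets was not tested. In no member gene did the groups stand apart, where 12.4% of all genes had every GNPs array above every Control array and 21.5% below. No probe set moved apart from its gene (0.00777% of all did), and 1 did so at an unadjusted p under 0.05.

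The smallest p-values were those of SRSF3, SRSF7 and HNRNPM, none of which passed (limma adjusted p = 0.864 each). SRSF3 lay at 0.78, 0.66 and 0.77 on GNPs arrays, against -0.70, -0.34 and 0.86 on Control arrays (0.80, SE 0.48). SRSF7, which like SRSF3 also serves in mRNA export, lay at 0.31, 0.29 and 0.26, against -0.96, -0.56 and 0.39 in Control (0.67, SE 0.44). HNRNPM lay at 0.49, 0.31 and 0.45, against -1.03, -0.24 and 0.82 in Control (0.57, SE 0.40). In each gene the GNPs arrays lay close together and inside the wide range of the Control arrays.

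**Figure D5:**
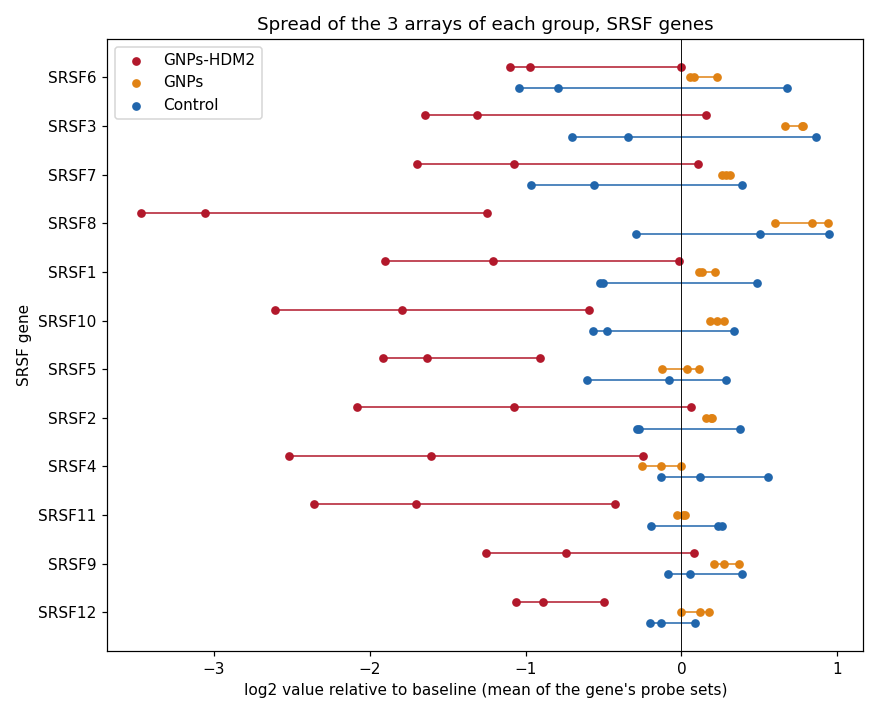
Points are the 3 arrays of each group and lines their range, on the log2 scale relative to baseline (horizontal axis), for each of the 12 SRSF genes (rows), with GNPs-HDM2 in red above GNPs in orange and Control in blue. GNPs arrays lie close together (median SD of 0.07 over the SRSF genes), Control arrays spread more (0.47) and GNPs-HDM2 arrays most (0.96).

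The members varied more between arrays of a group than other genes did in 2 of the 3 groups. The median SD of a member gene was 0.84 in GNPs-HDM2 (0.40 over all genes), 0.09 in GNPs (0.09) and 0.32 in Control (0.15). Within Control the SRSF genes had a median SD of 0.47 and the HNRNP genes 0.25. Control replicate 3 was the highest of its group in 29 of 34 member genes, where 32.5% of all genes had it highest. GNPs-HDM2 replicate 2 was the lowest of its group in 32 and replicate 3 the highest in 32, where 32.5% and 37.5% of all genes had them so. All bright probe sets had the same order, with medians of -1.29, -1.79 and -0.29 on GNPs-HDM2 replicates 1, 2 and 3. Without GNPs-HDM2 replicate 3, 30 member genes were lower than in Control (88.2%, against 31.8% of all genes), among them SRSF1 (-1.37, adjusted p = 0.00251), SRSF3 (-1.42, adjusted p = 0.00616) and SRSF7 (adjusted p = 0.0214).

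Partners of the splicing factors are given from 4 lists for GNPs-HDM2 against Control, where 25.1% of all genes fell and 33.1% rose, and 21.6% and 23.6% did after level centring. Of 13 measured kinases, methyltransferases and import factors that act on SR and hnRNP proteins, 7 fell and 1 rose (median -1.07, and -0.41 after level centring, with 4 lower and 3 higher). SRPK2, a kinase of SR proteins, lay at -2.19, -2.43 and -1.28 on GNPs-HDM2 arrays, against 0.27, 0.03 and -0.09 on Control arrays (-2.03, SE 0.27, limma adjusted p = 0.00122). TNPO3, which carries SR proteins into the nucleus, fell by 2.12 (SE 0.29, limma adjusted p = 0.00133). SRPK3, a muscle-enriched kinase of the same family, rose by 0.66 (SE 0.20, limma adjusted p = 0.0215).

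Of 23 components of the U1 and U2 particles and their Sm core, 13 fell and 2 rose (median -0.67, which level centring turned to 0.14, with 3 lower and 6 higher). SF3A1 (-1.40, limma adjusted p = 0.00149) and SF3B3 (-0.90, limma adjusted p = 0.00514), both of the U2 particle, fell, and SF3B4 (0.85, limma adjusted p = 0.0148), of the same particle, and the branch point binder SF1 (0.39, limma adjusted p = 0.0359) rose. Of 18 components of the tri-snRNP and the complex around PRPF19, which form the catalytic spliceosome, 12 fell and 0 rose (median -0.97, and -0.32 after level centring, with 7 lower and 0 higher), among them CDC5L (-1.87, limma adjusted p = 0.00203) and PLRG1 (-1.53, limma adjusted p = 0.00256).

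Of 46 other splicing regulators 25 fell and 3 rose (median -0.65, and -0.29 after level centring, with 14 lower and 6 higher). SCAF4 (-2.75, limma adjusted p = 0.00121) and SCAF8 (-1.83, limma adjusted p = 0.00284), which bind RNA polymerase II and guard against early polyadenylation, fell. NOVA2 (1.01, limma adjusted p = 0.00568) and NOVA1 (0.52, limma adjusted p = 0.0248), neuronal splicing factors, rose, and all 4 kept their call after level centring. In GNPs against Control none of the genes of these lists passed.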

How the data were processed

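The samples were 9 PrimeView arrays of Y79 cells, and per the labels' protocols the RNA was made into biotinylated cRNA with Affymetrix reagents. The deposited values of the authors are log2 values set against each probe set's own baseline. The base 2 was taken and is not stated, and 59.69% of probe sets hold an exact 0 on at least 1 array. The tool and settings that summarized the probes are not given in the sources used here. Because no level is given, the precision is limited by the number of arrays.

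Level classes were read from the step size of the stored numbers on Control and GNPs arrays (at least 3 non-zero values). All arrays entered one limma fit (lmFit and eBayes, limma 3.58.1, R 4.3.3, R package data.table, version 1.17.8), with Benjamini-Hochberg adjustment over 49293 probe sets, 18132 genes (mean of single-symbol probe sets) or 38590 probe sets of genes with at least 2 (moving apart), at 0.05. The fit was tested on simulated data. An exact permutation test of 3 against 3 arrays cannot go below p = 0.1 and was not used. Alternatives were median centring, quantile normalization, level centring, the 2 groups alone, a replicate block, trend and robust settings, array weights by group, leaving out each array, leaving out dim probe sets or those ending in _x_at or _s_at, and diffSplice.

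Members and lists were chosen with earlier results of these data known. Genes are named by rule: SRSF1, SRSF3, HNRNPA1 and HNRNPK, the smallest adjusted p per family and direction (up to 6 against Control, up to 3 against GNPs), the 3 smallest p in GNPs against Control, the 8 widest gaps, and up to 2 genes per direction of each pathway list. Gene names are those of the platform annotation, and promoters are from RefSeq.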

Additional observations from a re-analysis of the deposited data

How the results depend on the processing

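Of the counts recomputed under the alternatives, 216 stayed within 1.5 times and 39 did not. Of the single log2 differences 2426 kept their call or lack of one, 363 lost a call and 25 gained one. A further 5 changed sign with a call in at least 1 of the 2 fits. Changes of sign with no call in either fit are among the 2426. Against Control, level centring so turned SRSF6 to 0.23, SRSF7 to 0.33, HNRNPM to 0.33, HNRNPCL1 to -0.089 and HNRNPCL2 to -0.032. In GNPs-HDM2 against Control, quantile normalization left 23 probe sets lower, 1 higher, 11 genes lower and 2 probe sets apart from their gene. Level centring left 52 lower and 8 higher, and without dim probe sets 3 were higher. The 47 probe sets apart became 12 with the 2 groups alone, 22 with array weights and 17 with diffSplice (9.23%, 16.9% and 13.1%, against 9.02%, 17.4% and 21.6% of all probe sets). Leaving out 1 array gave 56 to 106 probe sets lower (40.9% to 77.4%, against 16.6% to 30.2% of all). It gave 0 to 1 genes higher (HNRNPCL1, without GNPs-HDM2 replicate 2 or 3) and 26 to 69 probe sets apart (20% to 53.1%, against 12% to 49.9% of all). In GNPs against Control, quantile normalization gave 3 probe sets higher and 1 lower (2.19% and 0.73%, against 4.78% and 5.73% of all). It gave 1 apart (0.769%, against 2.59% of all). In GNPs-HDM2 against GNPs, the 1 gene higher became 0 with median centring, quantile normalization, level centring, the 2 groups alone, array weights or without _x_at and _s_at probe sets, and 0 to 1 without single arrays. There, 3 probe sets were higher without dim ones and 5 to 10 without single arrays, and 20 were apart with quantile normalization, 32 with diffSplice and 39 to 77 without single arrays. Level centring turned HNRNPA1 to 0.021 against Control and 0.0036 against GNPs, SRSF9 to 0.083, HNRNPCL1 to -0.087 against GNPs and probe set 11727812_s_at of SRSF1, relative to its gene, to 0.36. It centres bright, middle and dim probe sets apart by construction, and the causes of the other changes were not tested. Whether replicate numbers pair the arrays was not settled: 2 of 9 same-number pairs had a correlation of deviations over 0.1 (range -0.0334 to 0.231). The highest was between replicate 3 of Control and of GNPs-HDM2, and Control replicate 1 with GNPs-HDM2 replicate 2 reached 0.181. With the replicate number as a block, 26 genes and 92 probe sets were lower in GNPs-HDM2 than Control (76.5% and 67.2%, against 25.5% and 24.1% of all). With that block 53 were apart (40.8%, against 26.4% of all). The number of arrays limits all of these, and signal over background was not given.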
